A study of Mus musculus with 6 samples.

Results

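Apoe and 7 further genes of lipoprotein handling and lipid efflux were followed in cultured mouse kidney cells after siRNA against Prune2. The other genes were Lpl, Abca1, Abcg1, Nr1h3, Mylip, Cd36 and Plin2. Rows of the deposited table were taken where the gene symbol was one of these 8 names, which gave 8 rows of 22274. The 8 genes were chosen from results of this same comparison, namely their difference between Prune2 siRNA and control siRNA. Their differences are therefore given as a description, with no p-value.

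Cells load cholesterol and fatty acids through lipoproteins and scavenger receptors, store the surplus as esters in lipid droplets, and return cholesterol to the outside through ABC transporters. The liver X receptors (LXR) are nuclear receptors that sense oxidised cholesterol and switch on efflux genes such as Abca1, Abcg1 and Apoe, together with Mylip, whose protein limits lipoprotein uptake. Macrophages are a well-known site of this programme, because they take up modified lipoproteins and dead cells.

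All 6 libraries came from cells labelled as primary renal fibroblasts and treated with TGF-β at 5 ng/ml for 48 h, a cytokine that activates fibroblasts. In 3 libraries the cells carried siRNA against Prune2 and in 3, labelled wild type, they carried a scrambled control siRNA. The labels do not say whether replicates were separate isolations or cultures, so the spread may be technical. Total counts per library ran from 20075265 to 23234797. Prune2 itself was lower in every Prune2 siRNA library, at 3.77, 3.18 and 4.44 CPM, against 6.49, 7.84 and 6.52 CPM in control libraries (CPM, counts scaled to library size with TMM factors; edgeR log2 fold change -0.87, adjusted p = 0.000214). On the FPKM scales limma did not call it (adjusted p of 0.134 to 0.19). Markers of several cell types were present. Of the 12 fibroblast markers, Vim (395 CPM with Prune2 siRNA and 570 CPM with control siRNA), Col1a1 (204 and 236 CPM), Col1a2 (74.8 and 86 CPM) and Pdgfrb (20.6 and 19.7 CPM) were well detected, while Dcn, Lum and Fap were too low to be tested. The fibroblast proteoglycan genes Dcn and Lum summed to 32 and 3 counts over the Prune2 siRNA libraries and to 18 and 3 over the control libraries. Epcam, an epithelial adhesion molecule, averaged 431 CPM with Prune2 siRNA and 428 CPM with control siRNA, whereas the tubular genes Slc34a1 and Aqp2 were at 0 counts in all libraries. Summed over their lists, 16 tubular epithelial markers reached 5460 to 5870 CPM with Prune2 siRNA and 5860 to 6000 CPM with control siRNA, and 12 fibroblast markers 705 to 750 CPM and 929 to 968 CPM.

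The 8 genes lie on 7 chromosomes of GRCm38 and all are protein-coding. Apoe lies at chr7:19696109-19699188 on the minus strand, Lpl at chr8:68880491-68907448 on the plus strand, Abca1 at chr4:53030787-53159895 on the minus strand and Abcg1 at chr17:31057675-31117988 on the plus strand. Nr1h3 lies at chr2:91184061-91202834 on the minus strand, Mylip at chr13:45389742-45412022 on the plus strand, Cd36 at chr5:17781690-17888801 on the minus strand and Plin2 at chr4:86648386-86670060 on the minus strand. Exons of 7 of the 8 overlap no other annotated gene. Nr1h3 shares 34 exonic bases with Gm13783 on the same strand, a gene that is not used here.

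Promoter sequence, from 250 bases before to 50 bases after the transcription start, was found in RefSeq (GRCm38.p6) for 6 of the 8 genes, all but Lpl and Abcg1. The sequences of Abca1, Apoe and Mylip are shown because these 3 are known LXR targets, of which Abca1 was called higher, Apoe lower and Mylip neither way. Each is printed 5′ to 3′ along the gene. Capitals mark TATAAA (the TATA box), GAGGAA on either strand (the core of sites for PU.1, a transcription factor of myeloid cells) and the closest match to the LXR element. That element, called DR4, is a direct repeat of AGGTCA with 4 bases between the copies.
Abca1, chr4:53159846-53160145, minus strand: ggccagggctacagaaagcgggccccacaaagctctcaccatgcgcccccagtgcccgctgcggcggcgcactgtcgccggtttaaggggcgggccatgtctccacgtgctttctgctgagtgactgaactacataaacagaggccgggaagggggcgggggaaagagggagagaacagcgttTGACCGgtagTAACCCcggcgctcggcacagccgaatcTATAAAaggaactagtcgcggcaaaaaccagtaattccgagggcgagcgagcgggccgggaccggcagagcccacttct
Apoe, chr7:19699139-19699438, minus strand: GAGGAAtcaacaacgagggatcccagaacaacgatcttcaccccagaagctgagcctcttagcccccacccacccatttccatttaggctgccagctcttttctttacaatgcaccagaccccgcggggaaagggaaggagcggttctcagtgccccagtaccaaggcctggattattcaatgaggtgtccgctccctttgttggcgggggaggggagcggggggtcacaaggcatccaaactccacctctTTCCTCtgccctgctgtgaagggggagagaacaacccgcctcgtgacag
Mylip, chr13:45389492-45389791, plus strand: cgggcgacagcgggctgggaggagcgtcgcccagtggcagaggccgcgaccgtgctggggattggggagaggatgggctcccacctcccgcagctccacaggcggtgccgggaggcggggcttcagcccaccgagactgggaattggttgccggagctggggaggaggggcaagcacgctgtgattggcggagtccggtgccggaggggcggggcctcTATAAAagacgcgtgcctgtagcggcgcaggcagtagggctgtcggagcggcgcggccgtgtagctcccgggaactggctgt

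With at most 2 mismatches over the 12 letters of the repeat, 0 of the 6 genes held a DR4 in this window, on either strand, and 3.02% of all 32851 promoters held one. With at most 3 mismatches, a setting chosen after the data were seen, Abca1 alone held a match, on the minus strand of the gene from -67 to -52, where the start base is 0. At that setting 21.9% of all promoters held one. TATAAA lay from -29 to -24 in Abca1 and from -32 to -27 in Mylip, and 13.6% of all promoters hold it. In the Apoe window, GAGGAA lay from -250 to -245, and on the other strand from 1 to 6. It also lay from 10 to 15 in 1 of the Nr1h3 windows, and is found in 28.3% of promoters. RefSeq lists 2 further Apoe starts, with TATAAA at -96 to -91 and, on the other strand, overlapping it, at -100 to -95 of the one, and GAGGAA at -132 to -127 of the other. The E-box CACGTG, held by 7.15% of promoters, was found in Abca1 and Plin2, and the SP1 box GGGCGG, held by 35.7%, in Abca1, Plin2, Cd36 and Mylip. These matches describe letters in a short window and say nothing of binding.

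**Figure D1:**
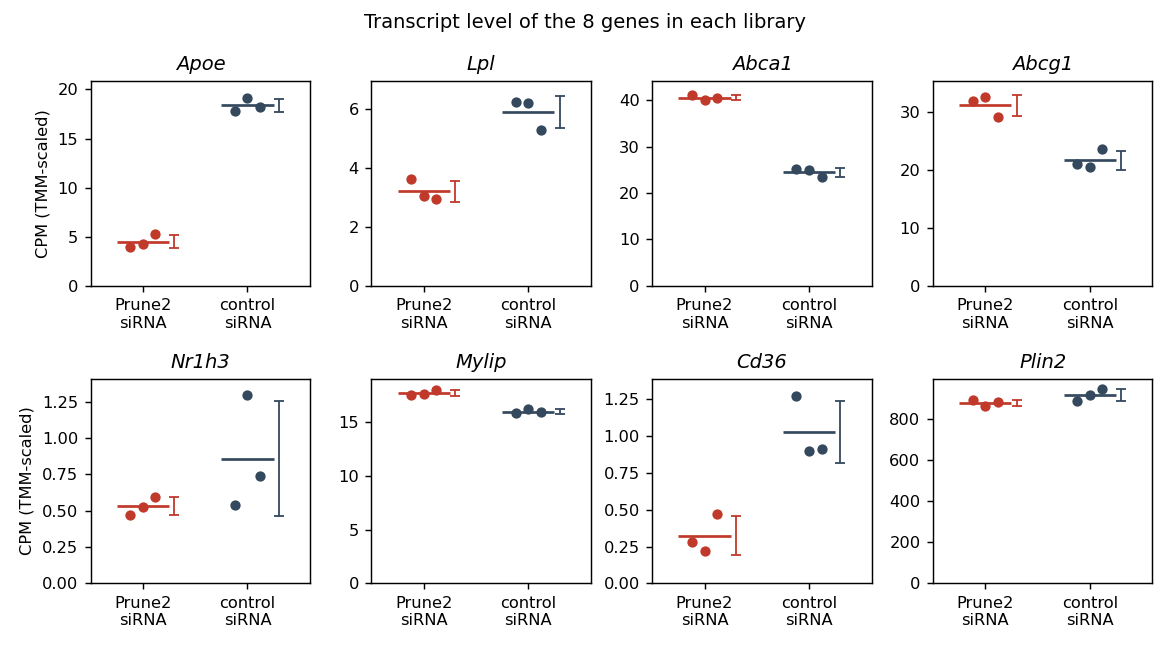
TMM-scaled CPM of each of the 8 genes in each library, with Prune2 siRNA on the left and control siRNA on the right. Points are libraries, horizontal bars are means and brackets are SD (n = 3 each), and each y axis starts at 0. Apoe, Lpl and Cd36 stand lower and Abca1 and Abcg1 higher with Prune2 siRNA, while the points of Nr1h3 and Plin2 overlap.

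Of the 8 genes, Apoe, Lpl and Cd36 were called lower with Prune2 siRNA, Abca1 and Abcg1 were called higher, and Nr1h3, Mylip and Plin2 were not called. A gene was called at an adjusted p under 0.05 in edgeR's quasi-likelihood test over all tested genes. In counts over lists and pathways, genes that rose were called higher and genes that fell were called lower. Among all 13248 tested genes 10.3% were called, with 4.46% higher and 5.83% lower. For 6 of the 8 genes the CPM ranges of the groups were separate, against 24.3% of all tested genes. Since the genes were picked from this comparison, nothing is read from these shares. All 8 passed the filter on low counts. Cd36 passed through the control group, with 3 of 3 control libraries at the filter's level but 1 of 3 Prune2 siRNA libraries. That level is 10 counts in a library of median size. For a gene this scarce with Prune2 siRNA, passing the filter favoured a higher control group but did not fix a difference.

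Apoe encodes apolipoprotein E, which carries cholesterol away from cells and is bound by lipoprotein receptors. It stood at 3.96, 4.27 and 5.25 CPM in the Prune2 siRNA libraries, against 17.8, 19.1 and 18.2 CPM in the control libraries. Every Prune2 siRNA library lay far below every control library. Means were 4.50 ± 0.673 CPM with Prune2 siRNA and 18.4 ± 0.673 CPM with control siRNA (SD, n = 3 each), which is 4.06-fold lower (log2 fold change -2.02, SE 0.11). Of the 13248 tested genes, 148 had a lower log2 fold change than Apoe. The Prune2 siRNA libraries were the more scattered in relative terms, with a coefficient of variation of 15% against 3.66% in control libraries.

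Lpl encodes lipoprotein lipase, which releases fatty acids from circulating triglyceride and is made by macrophages as well as by fat and muscle. Its level was 3.63, 3.05 and 2.95 CPM with Prune2 siRNA, against 6.25, 6.20 and 5.30 CPM with control siRNA. The groups were separate, with the highest Prune2 siRNA library below the lowest control library. The log2 fold change was -0.88 (SE 0.16), or 1.84-fold lower.

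Cd36, a scavenger receptor that takes up fatty acids and oxidised LDL, was close to the lower limit of what these libraries can resolve. Its counts were 6, 5 and 11 in the Prune2 siRNA libraries and 26, 18 and 21 in the control libraries. In CPM it stood at 0.283, 0.218 and 0.470 with Prune2 siRNA, against 1.27, 0.899 and 0.912 with control siRNA. The groups did not overlap, but the relative spread within them was wide, at 40.4% with Prune2 siRNA and 20.4% with control siRNA. The fitted log2 fold change was -1.64 (SE 0.40). Leaving out Prune2 siRNA replicate 3, the highest of its group, gave -2.01, and leaving out Prune2 siRNA replicate 2, the lowest, gave -1.42. Without control replicate 1 it was -1.47.

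The transporter genes ran the other way. Abca1 passes cholesterol and phospholipid to lipid-free apolipoproteins, and its transcript stood at 41.2, 40.1 and 40.6 CPM in the Prune2 siRNA libraries, against 25.2, 25 and 23.4 CPM in the control libraries. The groups were far apart and each was tight, with a coefficient of variation of 1.36% with Prune2 siRNA and 3.97% with control siRNA. The log2 fold change was 0.73 (SE 0.06), a 1.66-fold rise, and 139 of the 13248 tested genes had a higher one. Abcg1, which moves cholesterol to mature HDL particles, stood at 31.9, 32.7 and 29.2 CPM with Prune2 siRNA, against 21, 20.5 and 23.6 CPM with control siRNA. Its lowest Prune2 siRNA library lay above its highest control library. The log2 fold change of Abcg1 was 0.52 (SE 0.07), or 1.44-fold.

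Nr1h3 encodes LXRα itself, and its transcript was scarce. It had 10, 12 and 14 counts in the Prune2 siRNA libraries and 11, 26 and 17 in the control libraries, or 0.472, 0.523 and 0.598 CPM against 0.537, 1.30 and 0.738 CPM. The groups overlapped, and control replicate 2 stood well above the other 5 libraries. The log2 fold change was -0.67 (SE 0.39) and was not called, and without control replicate 2 it was -0.27.

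Mylip encodes an E3 ubiquitin ligase that limits lipoprotein uptake. It stood at 17.5, 17.6 and 18.0 CPM with Prune2 siRNA, against 15.8, 16.2 and 15.9 CPM with control siRNA. All 3 Prune2 siRNA libraries lay above all 3 control libraries, by a small margin. The log2 fold change of 0.15 (SE 0.08) was not called. Plin2, a coat protein of lipid droplets whose level follows the lipid stored, stood at 892, 864 and 884 CPM with Prune2 siRNA, against 888, 919 and 945 CPM with control siRNA. The groups overlapped, and the log2 fold change of -0.06 (SE 0.04) was not called although this gene had by far the most counts of the 8.

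**Figure D2:**
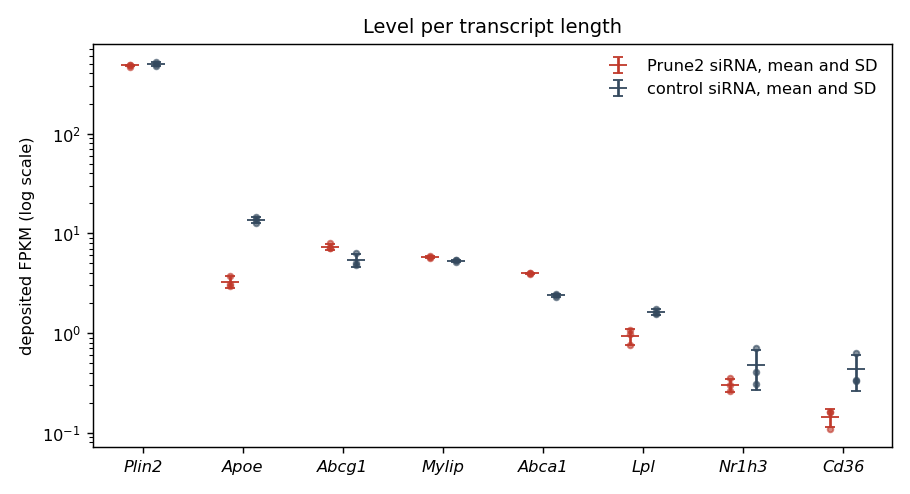
Deposited FPKM on a log axis for the 8 genes, ordered by their mean in control libraries, with Prune2 siRNA left of control siRNA for each gene. Points are libraries and bars are means with SD (n = 3 each). Plin2 stands near 500 in both groups, and Apoe is second among the control libraries but below Abcg1, Mylip and Abca1 with Prune2 siRNA.

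Levels per transcript length, as the deposited FPKM give them, differed widely between the 8 genes. Plin2 averaged 481 ± 10.6 FPKM with Prune2 siRNA and 499 ± 18.8 FPKM with control siRNA (SD, n = 3 each), and its mean over the 6 libraries ranked 71st of the 22274 genes in the table. The median over tested genes was 9.49 FPKM. In control libraries the order below Plin2 was Apoe at 13.5 ± 0.910 FPKM, then Abcg1, Mylip, Abca1 and Lpl. Among these control levels Abcg1 (4.82 to 6.28 FPKM) and Mylip (5.13 to 5.36 FPKM) overlapped, as did Nr1h3 (0.31 to 0.70 FPKM) and Cd36 (0.33 to 0.63 FPKM) at the bottom. With Prune2 siRNA the order below Plin2 was Abcg1 at 7.35 ± 0.479 FPKM, Mylip at 5.78 ± 0.113, Abca1 at 3.97 ± 0.0666, Apoe at 3.26 ± 0.435 and Lpl at 0.933 ± 0.168 (SD, n = 3 each). No neighbours in that order overlapped, Nr1h3 and Cd36 included. Apoe and Abca1 had changed places: Apoe was at 2.95 to 3.76 FPKM and Abca1 at 3.90 to 4.03 FPKM with Prune2 siRNA, against 12.64 to 14.46 and 2.28 to 2.44 FPKM with control siRNA.

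The transcript length implied by count and FPKM, a measure that played no part in picking the genes, was put through an exact permutation test, two-sided, which for 3 against 3 libraries cannot go below p = 0.1. For Apoe it averaged 1380 ± 30.3 bases with Prune2 siRNA and 1354 ± 41.1 bases with control siRNA (SD, n = 3, exact p = 0.4). For Abca1 it was 10265 ± 6.09 and 10258 ± 7.30 bases (SD, n = 3, exact p = 0.4). Across the 8 genes the mean with Prune2 siRNA differed from that with control siRNA by between -6.75% (Cd36) and 4.85% (Abcg1). Mylip gave the smallest p the test allows, with 3067 ± 0.813 bases with Prune2 siRNA and 3017 ± 48.8 bases with control siRNA (SD, n = 3, exact p = 0.1, 1 of 8 tests). The implied length of Abcg1 varied most among control libraries in bases, at 3330, 4248 and 4659, so its FPKM is less even than its counts. The authors' deposited table gives log2 fold changes of -2.05 for Apoe, -0.80 for Lpl, -1.6 for Cd36, 0.74 for Abca1 and 0.45 for Abcg1. For Nr1h3, Mylip and Plin2 the authors' deposited table gives -0.64, 0.13 and -0.05.

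Most macrophage and leukocyte markers were lower, as Apoe, Lpl and Cd36 were. Of 21 tested markers 20 fell and 0 rose, against 5.83% and 4.46% of all tested genes. The median log2 fold change was -2.61 against 0 over all tested genes. Cd14 was the 1 not called, at 8.55 CPM with Prune2 siRNA and 7.54 CPM with control siRNA (log2 fold change 0.18). Cx3cr1, Mrc1 and Aif1 had 0 of 3 Prune2 siRNA libraries but 3 of 3 control libraries at the filter's level. They passed through the control group, so that among tested genes they had to differ. Cd74, the MHC class II invariant chain, averaged 5.50 ± 0.680 CPM with Prune2 siRNA and 42.7 ± 2.29 CPM with control siRNA (SD, n = 3 each; adjusted p = 7.37e-18), and Ctss, a cathepsin of antigen-presenting cells, had a log2 fold change of -2.84 (adjusted p = 8.14e-15). Summed over the 22 listed markers, the level ran from 60.5 to 63.2 CPM in Prune2 siRNA libraries, against 241 to 298 CPM in control libraries. None of the 22 was at 0 in all libraries, and Trem2, with 2 counts over the Prune2 siRNA libraries and 21 over the control libraries, was too low to be tested. Of the 21 tested markers, 16 had a lower log2 fold change than Apoe, 17 a lower one than Cd36 and 20 a lower one than Lpl. In bulk RNA, fewer cells of a type and less RNA per cell cannot be told apart. The part of these markers in the lower Apoe, Lpl and Cd36 was not tested.

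Markers of other cells moved less. For comparison, 4.46% of all tested genes rose and 5.83% fell. Of 12 tested endothelial markers 7 fell and 0 rose (median log2 fold change -0.48), with summed levels of 112 to 118 CPM with Prune2 siRNA and 150 to 165 CPM with control siRNA. Cdh5, the endothelial cadherin, fell by 0.50 on the log2 scale (adjusted p = 8.3e-06), and Emcn, endomucin, fell by 0.45 (adjusted p = 2.19e-05). Of 9 tested fibroblast markers 4 fell and 0 rose (median -0.21), Vim (vimentin, adjusted p = 3.72e-09) and Col1a1 (a type I collagen chain, adjusted p = 0.000682) among them. Of 13 tubular epithelial markers 4 rose and 3 fell (median 0.01), with Slc12a3, a sodium chloride cotransporter, at 1.42 and Cdh16, the kidney cadherin, at 0.28, while Lrp2 (megalin) stood at -0.26 and Aqp1 (a water channel) at -0.41. Aqp1 lost its call in 8 of 15 alternatives, without Prune2 siRNA replicate 1 or 3 or control replicate 2 or 3 among them (adjusted p = 0.133, 0.125, 0.105 and 0.154). Of 10 adipocyte markers Adipoq, Plin1, Cidec and Cfd were at 0 counts in all libraries, 4 were tested, and Lpl itself was the called one. The higher Abca1 and Abcg1 stood beside lower levels of macrophage and endothelial markers, and the part of any cell type in it was not tested.

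**Figure D3:**
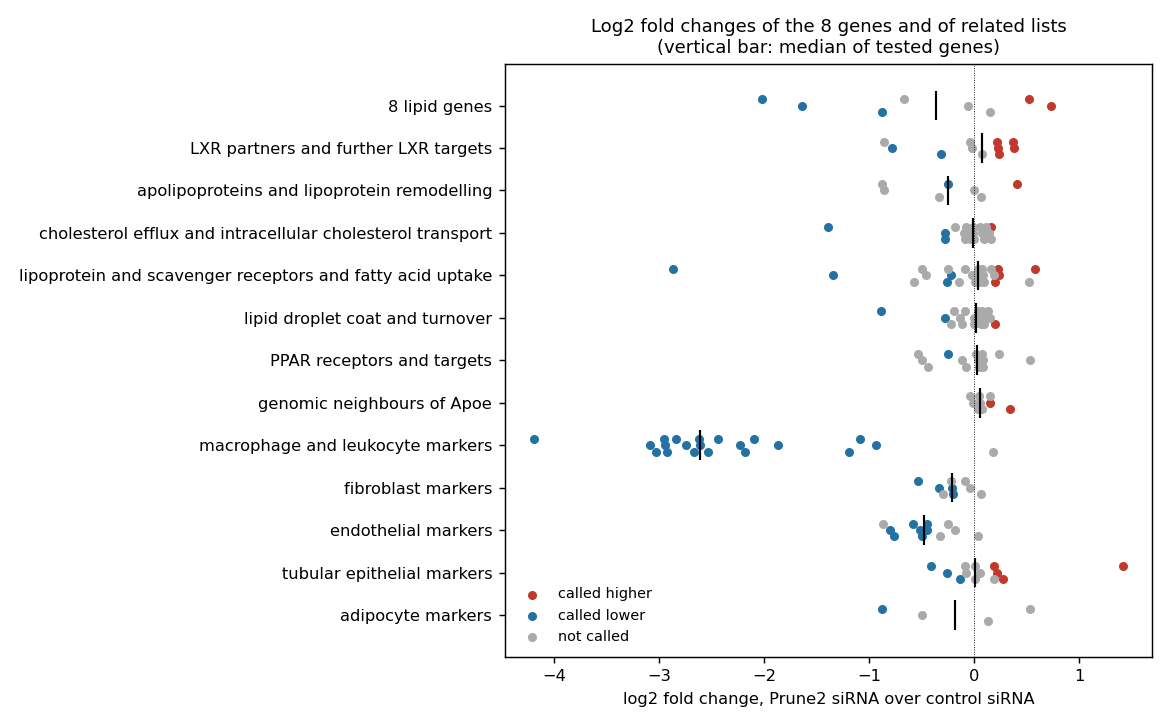
Log2 fold change, Prune2 siRNA over control siRNA, of each tested gene among the 8 lipid genes, 7 related lists and 5 lists of cell type markers. Red points were called higher, blue points called lower and grey points not called, and the vertical bar is the median of the list. The macrophage and leukocyte markers centre on -2.61, and the medians of the lipid-related lists lie between -0.25 and 0.08.

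The wider lipid pathway was read from 6 lists of further genes, picked by function, and 1 of the neighbours of Apoe in the genome. Together they held 133 symbols besides the 8 genes, of which Abcg4, Arl4c and Zfp296 were not matched by symbol and 97 were tested. Of the 97, 14 rose, 11 fell and 72 were not called, or 25.8% called, with a median log2 fold change of 0.04. Over all tested genes 10.3% were called, with 4.46% higher and 5.83% lower, and these shares stand beside each list that follows. Without control replicate 2, the number that fell was 7.

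Among 11 tested LXR partners and further LXR targets 5 rose and 2 fell (median 0.08). Scd1 and Scd2, stearoyl-CoA desaturases, rose by log2 fold changes of 0.38 (SE 0.04, adjusted p = 5.9e-07) and 0.37 (SE 0.05, adjusted p = 2.22e-06). Fasn, Srebf1 and Lpcat3, which make or remodel fatty acyl chains or drive their synthesis, were the other 3 that rose, by 0.22, 0.23 and 0.24. SREBP-1 and its targets Fasn and Scd1 also answer to insulin and sterol signals, so the list is not specific to LXR. Mertk, a receptor by which macrophages engulf dead cells, fell to 2.66 ± 0.408 CPM with Prune2 siRNA, against 4.57 ± 0.895 CPM with control siRNA (SD, n = 3 each; adjusted p = 0.00607), a call that was lost without control replicate 2 (adjusted p = 0.0698) and in all 3 fits on FPKM (0.0954 to 0.0999). Smpdl3a, a phosphodiesterase, fell by 0.31 (adjusted p = 0.0487), and lost its call in 10 of 15 alternatives. Nr1h2, which encodes LXRβ, averaged 56.9 ± 0.783 CPM with Prune2 siRNA and 57.6 ± 3.10 CPM with control siRNA (SD, n = 3 each) and was not called, as Rxra and Rxrb were not. Pltp, the phospholipid transfer protein, had a log2 fold change of -0.86 (SE 0.29) and missed the threshold (adjusted p = 0.055).

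Of 7 tested apolipoprotein and lipoprotein remodelling genes 1 rose and 1 fell (median -0.25). Lipg, endothelial lipase, averaged 17.4 ± 1.36 CPM with Prune2 siRNA and 13 ± 0.465 CPM with control siRNA (SD, n = 3 each; adjusted p = 0.00138). Lipg lost its call in limma on log2(FPKM + 1) with no filter (adjusted p = 0.0771). Angptl4, an inhibitor of lipoprotein lipase and a PPAR target, fell by 0.25 (adjusted p = 0.0108). The call was lost when control replicate 2 was left out (adjusted p = 0.088) and in all 3 fits on FPKM (0.0646 to 0.0885). Clu, an apolipoprotein of HDL and a chaperone, averaged 10800 CPM with Prune2 siRNA and 10300 CPM with control siRNA and was not called. Apoa1, Apoa4, Apoa5, Apoc3 and Apoc4 were at 0 counts in all 6 libraries.

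For cholesterol efflux and transport inside the cell, 1 of 19 tested genes rose and 3 fell (median -0.01). Ch25h, which makes 25-hydroxycholesterol, fell to 0.779 ± 0.371 CPM with Prune2 siRNA, against 2.02 ± 0.136 CPM with control siRNA (SD, n = 3 each; log2 fold change -1.39, SE 0.31, adjusted p = 0.00318). Soat1, which esterifies cholesterol for storage, fell by 0.28 (adjusted p = 0.00435) in counts, but on FPKM its log2 fold change was -0.11 to -0.12 and not called in any of the 3 fits (adjusted p of 0.601 to 0.681). Gramd1b, an ER sterol transfer protein, fell by 0.28. Abca2 was the gene that rose, by 0.16 (adjusted p = 0.0276), and lost its call in 8 of 15 alternatives. These were leaving out Prune2 siRNA replicate 1 or 3 or control replicate 1 or 2 (adjusted p = 0.0577, 0.155, 0.0909 and 0.203), DESeq2 (0.0565) and the 3 fits on FPKM (0.217 to 0.26). The lysosomal cholesterol exporters Npc1 and Npc2 stood at -0.01 each and were not called.

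Receptors moved in both directions. Of 25 tested lipoprotein and scavenger receptor and fatty acid uptake genes 4 rose and 4 fell (median 0.04). Those that rose included Vldlr (0.23, adjusted p = 0.00371) and Lrp8 (0.24, adjusted p = 0.00824), which are receptors for Apoe-bearing particles. The deposited FPKM of Vldlr overlapped, at 9.51 to 10.53 with Prune2 siRNA and 8.31 to 9.63 with control siRNA. Msr1, the macrophage class A scavenger receptor, fell to 1.6 ± 0.507 CPM with Prune2 siRNA, against 11.9 ± 1.38 CPM with control siRNA (SD, n = 3 each; adjusted p = 4.57e-12). Stab1, a scavenger receptor of macrophages and sinusoidal endothelium, fell by 1.34 (adjusted p = 4.22e-10). Lrp1, which also binds Apoe, fell by 0.22, and Lrp2 by 0.26, a call lost in all 3 fits on FPKM (adjusted p of 0.244 to 0.288). The deposited FPKM of Lrp1 overlapped, at 15.09 to 17.82 with Prune2 siRNA and 16.89 to 18.91 with control siRNA. Vldlr, Lrp8 and Lrp1 were not followed through the alternatives. Among 18 tested droplet genes 1 rose and 2 fell (median 0.02): Acsl3, an acyl-CoA synthetase of droplets, stood at 0.20 (adjusted p = 0.00736, 0.0611 without control replicate 1 and 0.0836 to 0.12 on FPKM), G0s2, an inhibitor of triglyceride lipase, at -0.89 (adjusted p = 0.00292), and Soat1 as above. Of 14 PPAR receptors and targets 0 rose and Angptl4 alone fell (median 0.03).

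**Figure D4:**
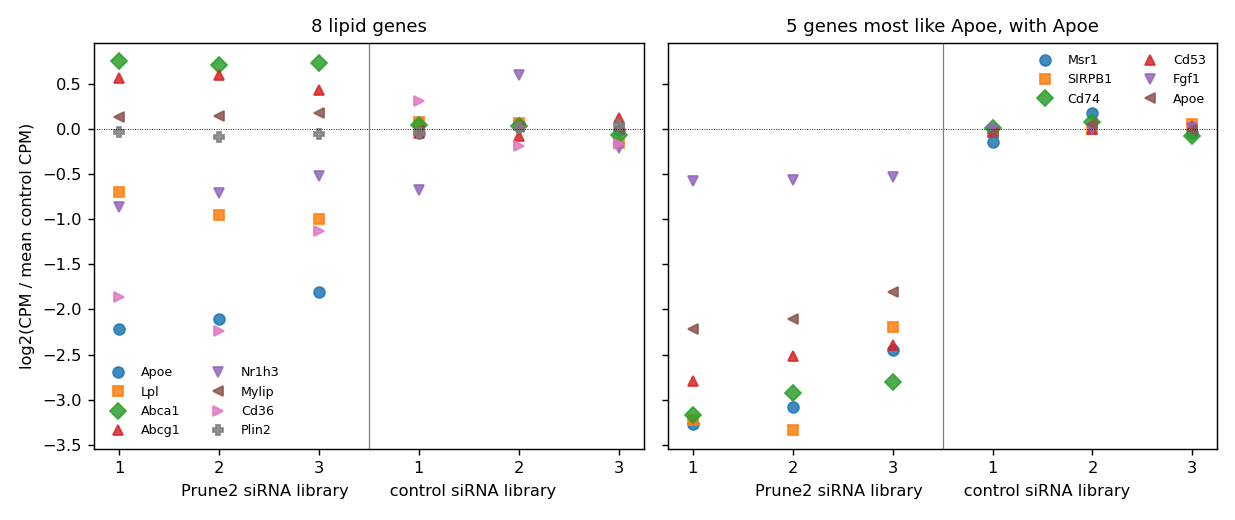
Level in each library relative to the mean of the 3 control libraries, as log2 of the CPM ratio, with Prune2 siRNA libraries left of control libraries. The left panel shows the 8 lipid genes and the right panel the 5 genes whose profile was most like that of Apoe, with Apoe. In each Prune2 siRNA library the points of Msr1, SIRPB1, Cd74 and Cd53 lie below that of Apoe, and those of Fgf1 lie nearer to 0.

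The genes most like Apoe over the 6 libraries were named by Pearson correlation of log2(CPM + 1), among 12380 tested genes with a mean of at least 1 CPM. They were Msr1 (r = 0.9987), SIRPB1 (0.9982), Cd74 (0.9978), Cd53 (0.9977) and Fgf1 (0.9977). With 6 points in 2 groups, r mainly reflects the shared difference between the groups, and it is given as a description. Cd53 encodes a tetraspanin of blood cells, and Fgf1 a fibroblast growth factor. SIRPB1, named as the deposited table spells it, belongs to a family with near-identical copies, so its value is uncertain. It also passed the filter through the control group, with 0 of 3 Prune2 siRNA libraries and 3 of 3 control libraries at the filter's level. Fgf1 moved far less than Apoe, with 67.8 CPM with Prune2 siRNA and 100 CPM with control siRNA (log2 fold change -0.56, SE 0.04). Among the 8 genes, by the same measure over the 6 libraries, r with Apoe was 0.95 for Cd36, 0.94 for Lpl, 0.72 for Plin2, 0.63 for Nr1h3, -0.94 for Mylip, -0.97 for Abcg1 and -0.99 for Abca1.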

How the data were processed

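The authors deposited 1 table with a read count and an FPKM value per gene and library, per the file headers. The authors' log2 ratio of mean FPKM and their p-value and adjusted p stand in the same deposited table. The submitters' processing notes name GRCm38 and mm10. The sources used here do not name the aligner, counter, strand setting or test. For the counts, edgeR 4.0.16 under R 4.3.3 was used (TMM, filterByExpr, glmQLFit, glmQLFTest, Benjamini-Hochberg over 13248 genes). A log2 fold change has an SE of its size over the square root of F. No replicate block was used. FPKM alternatives used limma 3.58.1 on log2(value + 1), which understates the change of low genes, and DESeq2 1.42.0 was a further alternative. Of 22274 identifiers, 22219 matched GENCODE M21 for positions. A symbol given to several identifiers was kept for the one GENCODE names so. Replicate pairs differed by 2.57 to 3.92 chi-square per degree of freedom, above sampling noise. The procedure was tested on simulated data, with genes of any level and the spread fitted to level alone, without each gene's own scatter. There, 48% of genes changed 1.2-fold, 83.7% changed 1.5-fold, 95.7% changed 2-fold and 100% changed 4-fold were called. A small change can therefore go uncalled. These shares are over changed genes that passed the filter again, and are not rates for scarce genes such as Cd36 and Nr1h3. The 8 genes, the lists and the tests were chosen with earlier results of these data known. Named besides the 8 were Prune2, up to 2 called genes per list and direction with the smallest adjusted p, the 5 most like Apoe, and others to account for small counts or after their values were seen (Dcn, Lum, Epcam, Nr1h2, Clu, Npc1, Npc2 and Pltp among them). Some genes counted in the lists are not reported here by name.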

Additional observations from a re-analysis of the deposited data

How the results depend on the processing

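Apoe, Lpl and Abca1 kept their call and direction in all 15 alternatives run, with log2 fold changes from -2.15 to -1.77, from -0.98 to -0.44 and from 0.56 to 0.75. Cd36 and Nr1h3 did not pass the FPKM filter and were in 13 of the 15, and 0 of the 8 genes changed direction in the alternatives that included them. Abcg1 and Cd36 lost their call on log2(FPKM + 1) with no filter (log2 fold changes 0.39 and -0.32), where 3 of the 8 genes were called and 1 of these was higher. Leaving out 1 library at a time kept 5 of the 8 called, with 997 to 1249 genes called of 1364 in all (401 to 551 higher and 596 to 708 lower), and 19 to 24 genes of the lipid lists called (12 to 14 higher and 7 to 11 lower). On log2(FPKM + 1), limma called 708 genes (332 higher, 376 lower), 14 of the lipid lists (9 higher, 5 lower) and 4 of the 8 genes. With a pseudocount of 0.1 it called 705 (336 and 369) and again 14 (9 and 5) and 4, and with no filter 593 (221 and 372) and 10 (6 and 4). These fits change unit, test and filter together, and the cause was not tested. Allowing 3 mismatches in the DR4 search moved the count of genes with a match from 0 to 1. With the replicate block edgeR called 1490 genes (664 higher, 826 lower) and the same numbers among the 8 genes (5) and the lipid lists (25). The deviations of same-numbered libraries from their group means had correlations of 0.06, 0 and 0.04. The labels do not say whether such libraries shared a culture or day, and with 3 libraries per group these correlations cannot settle it. Depth limits Cd36 and Nr1h3 most among the 8, which had at most 26 counts in any library.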

Other observations

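The genes beside Apoe on chromosome 7 were looked at as well. Of 9 tested neighbours 2 rose and 0 fell, or 22.2% called against 10.3% of all tested genes. Their median log2 fold change was 0.06, with a range from -0.04 to 0.34. Bcam, a laminin-binding adhesion molecule, averaged 277 ± 19.3 CPM with Prune2 siRNA and 219 ± 9.14 CPM with control siRNA (SD, n = 3 each; adjusted p = 3.86e-06), and Nectin2, a junction protein, had a log2 fold change of 0.15 (adjusted p = 0.0086), which lost its call without Prune2 siRNA replicate 3 (0.0912) or control replicate 2 (0.0863). Tomm40, the next gene along and a mitochondrial import pore, stood at 67.5 ± 0.846 CPM with Prune2 siRNA and 67.8 ± 1.79 CPM with control siRNA (SD, n = 3 each). The apolipoprotein genes of the cluster were nearly silent: Apoc1 had 0 counts over the Prune2 siRNA libraries and 2 over the control libraries, Apoc2 had 1 and 6, and Apoc4 had 0 in all.

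The deposited pathway annotation, looked up after the 8 genes were known, places 5 of them (Apoe, Lpl, Abca1, Mylip and Cd36) in cholesterol metabolism and 4 (Lpl, Nr1h3, Cd36 and Plin2) in PPAR signalling. Of the 27 other tested genes of cholesterol metabolism 3 rose and 5 fell (median log2 fold change -0.01), and of the 49 other tested genes of PPAR signalling 5 rose and 4 fell (median 0.01). Lipid and atherosclerosis holds 3 (Abca1, Abcg1 and Cd36), and of its 166 other tested genes 13 rose and 18 fell (median -0.01). Of the 30 other tested ABC transporters, the annotation of Abca1 and Abcg1, 4 rose and 3 fell (median 0.06). Among all 13248 tested genes 4.46% rose and 5.83% fell.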
